A study of Homo sapiens with 14 samples.

Results

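GDP-fucose is the sugar donor that every fucosyltransferase uses, and it is made in the cytosol by a de novo route and by a salvage route. Described here are the 9 genes that make GDP-fucose, carry it and release fucose from glycans, namely GMDS, GFUS, FCSK, FPGT, FUOM, SLC35C1, SLC35C2, FUCA1 and FUCA2. They were chosen by name, not by a cut on their values, although earlier results of these data were known at that time. All 9 were found among the 27819 genes listed in all 4 deposited count tables. The cells were CWR22Rv1, an established human prostate cancer line, and RNA was measured by RNA-sequencing in 14 libraries. The groups were DMSO, the solvent control (3 libraries), 30 µM Fucotrim I (3), 60 µM Fucotrim II (2), 100 µM SGN-2FF, labelled 2FF in the titles (3), and 2 µM P-SiaFNEtoc (3), each for 72 h. Doses and time were taken from the methods of the study, since the sample labels do not give them. Those methods state 3 repeats of every condition, but Fucotrim II has 2 libraries here. They are numbered 1 and 2 in the titles and 2 and 3 in the library names. Every library came from this single line, so the biological repeats are repeats of 1 line, and the DMSO libraries served all 4 inhibitor comparisons.

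In the de novo route GMDS, the GDP-mannose dehydratase, takes the first step from GDP-mannose, and GFUS, the GDP-L-fucose synthase, completes it. In the salvage route free fucose, whose ring forms are interconverted by the mutarotase FUOM, is phosphorylated by the fucokinase FCSK and joined to a guanosine nucleotide by FPGT. SLC35C1 carries GDP-fucose into the Golgi, SLC35C2 is its close relative, and the fucosidases FUCA1 and FUCA2 remove fucose from glycans in the lysosome and outside the cell. The Fucotrims are derivatives of a rhamnose phosphate designed to act on GMDS. The study states that they also lower GDP-mannose levels and that both induced apoptosis in CWR22Rv1 cells. With Fucotrim I, binding of a fucose-recognising protein to these cells did not fall far enough for the study to determine an inhibitory concentration. SGN-2FF, a fluorinated fucose, is converted through the salvage route into a fucosyltransferase inhibitor that also feeds back on the de novo route. P-SiaFNEtoc is an inhibitor of sialylation.

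In the GENCODE annotation of GRCh38, the build to which the reads had been mapped, GMDS spanned chr6:1623806-2245605 and FUCA2 chr6:143494812-143511720, both on the minus strand. FPGT was at chr1:74198238-74234086 (plus) and FUCA1 at chr1:23845077-23868290 (minus). FCSK was at chr16:70454595-70480274 (plus), FUOM at chr10:133355158-133358025 (minus), SLC35C1 at chr11:45804072-45813016 (plus) and SLC35C2 at chr20:46345980-46364458 (minus), and the position of GFUS is given with its counts. FPGT shared 8% of its exon bases with the read-through gene FPGT-TNNI3K on the same strand, so reads there could have been assigned to either gene or to neither. FUCA2 shared exon bases with VDAC1P8 (13.5%) and ENSG00000278206 (10.7%) on the opposite strand. The library kit keeps the strand, but whether the counting used it is not given in the sources used here. The other 6 genes with readable counts and GFUS shared no exon base with another annotated gene.

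The promoters of the 4 genes that changed with at least 1 inhibitor and have an entry in the RefSeq promoter table (GRCh38.p14) are shown first, because the values below turn on these genes. Each run is the 250 bases before the start site, read in the direction of the gene, with capitals for matches on either strand to CACGTG (an E-box), to CCAAT (bound by nuclear factor Y) and to GGGCGG (a GC box). FUOM is chr10:133358020-133358269, FCSK chr16:70454345-70454594, FUCA1 chr1:23868291-23868540 and FPGT chr1:74197992-74198241.
FUOM: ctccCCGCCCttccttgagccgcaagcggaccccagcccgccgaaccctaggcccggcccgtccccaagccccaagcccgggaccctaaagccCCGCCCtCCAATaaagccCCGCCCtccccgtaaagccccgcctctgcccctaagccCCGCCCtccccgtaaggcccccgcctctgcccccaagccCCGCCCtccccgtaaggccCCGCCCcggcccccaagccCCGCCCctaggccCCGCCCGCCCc
FCSK: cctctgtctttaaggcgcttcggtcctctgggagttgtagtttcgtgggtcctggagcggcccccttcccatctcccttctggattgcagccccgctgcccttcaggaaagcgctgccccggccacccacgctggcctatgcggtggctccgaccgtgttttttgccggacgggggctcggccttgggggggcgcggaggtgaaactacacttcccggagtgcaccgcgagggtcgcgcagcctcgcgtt
FUCA1: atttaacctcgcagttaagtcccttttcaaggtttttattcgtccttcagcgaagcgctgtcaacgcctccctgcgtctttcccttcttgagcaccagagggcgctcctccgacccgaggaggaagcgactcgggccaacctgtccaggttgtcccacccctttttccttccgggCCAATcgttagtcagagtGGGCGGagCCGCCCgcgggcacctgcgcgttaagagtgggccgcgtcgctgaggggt
FPGT: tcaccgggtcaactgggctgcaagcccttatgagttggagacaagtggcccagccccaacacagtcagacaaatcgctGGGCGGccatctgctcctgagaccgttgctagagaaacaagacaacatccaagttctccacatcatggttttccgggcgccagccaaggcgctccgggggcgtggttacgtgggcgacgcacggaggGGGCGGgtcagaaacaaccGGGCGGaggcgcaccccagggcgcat
The FUOM window held 9 copies of GGGCGG, all on the strand opposite to the gene, of which the last and the one before it overlapped, and 1 CCAAT. Of the 35116 promoter windows of this length in the table, 0.285% held at least 9 copies of GGGCGG, whereas 42.6% held at least 1, 32% held CCAAT and 6.34% held CACGTG. FCSK held none of these motifs, FUCA1 held 1 CCAAT and 2 GGGCGG, and FPGT held 3 GGGCGG. Among the other members, the first GMDS start held 3 GGGCGG, the 3 listed starts of SLC35C1 held 1, 4 and 1 (7.63% of windows held at least 4) and the FUCA2 window 1, and CACGTG occurred only upstream of 1 of these SLC35C1 starts. The 3 genes that rose with Fucotrim II and are printed above thus had no motif of these 3 in common, and a match in these letters does not show that a factor binds there.

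The cells carried the luminal prostate markers in every library. In DMSO, KRT8 was at 458 to 503 CPM (normalised read counts, scaled to the TMM-adjusted library total), KRT18 at 391 to 420 and HOXB13 at 219 to 239, while the basal markers TP63, KRT5 and KRT14 were at 0.125 or below and CD3E was at 0 in all 14 libraries. Of the fibroblast markers only COL1A1 was above 1 CPM (16.8 to 18.2 in DMSO). The 7 luminal markers used summed to 1430 to 1510 CPM in DMSO and to more with each inhibitor, 2160 to 2220 with Fucotrim I, 2030 to 2320 with Fucotrim II, 1850 to 1950 with SGN-2FF and 1750 to 1830 with P-SiaFNEtoc. KRT8 and KRT18 weigh most in this sum, and not every marker rose throughout. EPCAM was at 94.5 to 97.0 CPM in DMSO and at 85.2 to 107 over all 14 libraries. Counts from mitochondrially encoded genes took 5.98 to 7.03% of the library in DMSO, 8.67 to 14.25% with Fucotrim I, 12.15 to 17.03% with Fucotrim II, 8.27 to 8.69% with SGN-2FF and 6.11 to 6.83% with P-SiaFNEtoc. Library totals ran from 12553094 to 19981453 counts. In RNA from a whole culture, fewer cells that express a gene and less RNA of it per cell cannot be told apart.

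FUOM, the fucose mutarotase of the salvage route, rose with all 4 inhibitors. FCSK, the kinase that follows it, rose with both Fucotrims, as did SLC35C2, and FUCA1 rose and FPGT fell with Fucotrim II. GMDS, SLC35C1 and FUCA2 passed the test with no inhibitor. A gene was called where its Benjamini-Hochberg adjusted p in edgeR's quasi-likelihood test, taken over all genes tested, was below 0.05. With Fucotrim I, 3 of the 8 members tested were higher and 0 lower, where 21.6% of all 14188 genes tested were higher and 22.1% lower. With Fucotrim II, 4 of 8 were higher and 1 lower, against 25.6% and 25.7% of 14617 genes. With SGN-2FF 1 of 8 was higher and 0 were lower (11.5% and 9.08% of 14312 genes), and with P-SiaFNEtoc 1 of the same 8 was higher and 0 were lower (9.02% and 7.33% of 14259 genes). GFUS, the other member, had too few counts and is described apart. The median log2 fold change of the 8 members was 0.08, 0.21, -0.04 and 0.00 for these 4 inhibitors in turn, and that of all genes lay between 0.00 and 0.01. Where 0 members were lower, 0 were lower also at an unadjusted p below 0.05 and in DESeq2 and limma-voom. With so few members, these counts describe the named genes and set the family apart from other genes in no comparison.

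**Figure D1:**
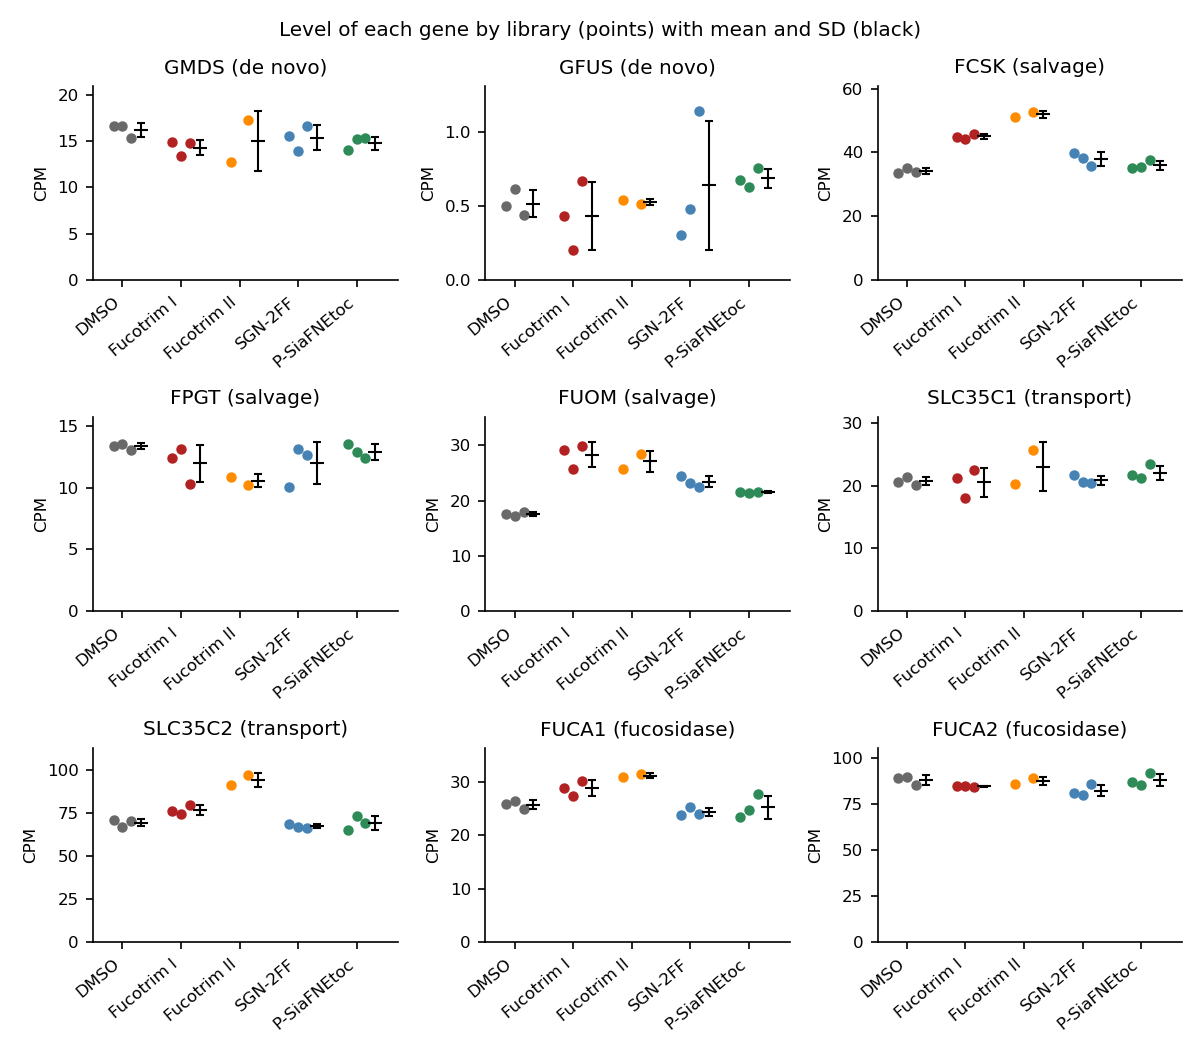
Level of each of the 9 genes in CPM (y axis, from 0) in the 14 libraries, as points by treatment (x axis), with the group mean and SD in black (n = 3, or 2 for Fucotrim II). All FUOM points of the treated groups lie above the DMSO points, which span 17.2 to 17.9 CPM, and FCSK and SLC35C2 are highest with Fucotrim II.

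FUOM was at 17.6, 17.2 and 17.9 CPM in the 3 DMSO libraries. With Fucotrim I it was at 29.2, 25.7 and 29.9 CPM, and with Fucotrim II at 25.7 and 28.4 CPM. With SGN-2FF it was at 24.5, 23.2 and 22.5 CPM, and with P-SiaFNEtoc at 21.5, 21.3 and 21.6 CPM. Every treated library was thus above every DMSO library, and the order of the groups was Fucotrim I, Fucotrim II, SGN-2FF, P-SiaFNEtoc and DMSO. The ranges of the 2 Fucotrims overlapped, while those of all other neighbours in that order did not. These levels rest on 287 to 502 counts per library.

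The fitted changes of FUOM were 1.62-fold with Fucotrim I (log2 fold change 0.70 ± 0.08 SE, adjusted p = 1.56e-06) and 1.54-fold with Fucotrim II (0.62 ± 0.09, adjusted p = 0.000366). They were 1.35-fold with SGN-2FF (0.43 ± 0.07, adjusted p = 0.000146) and 1.23-fold with P-SiaFNEtoc (0.30 ± 0.07, adjusted p = 0.0054). All 4 changes are measured from the same 3 DMSO libraries, so they are not independent of each other. In the Fucotrim I comparison 5.38% of all genes tested had a higher log2 fold change than FUOM, in the Fucotrim II comparison 14.1%, with SGN-2FF 6.28% and with P-SiaFNEtoc 8.79%. With the mitochondrially encoded genes left out, the log2 fold changes of FUOM were 0.70, 0.63, 0.43 and 0.30. The part of the luminal marker levels in this result was not tested.

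**Figure D2:**
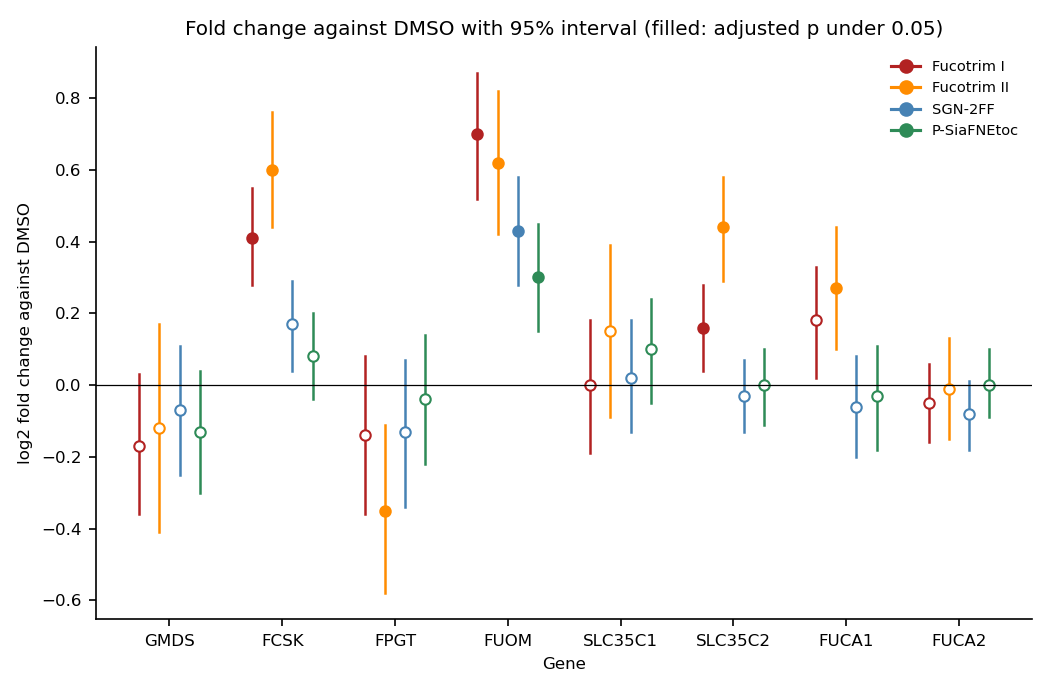
Log2 fold change against DMSO (y axis) of the 8 genes that passed the low-count filter in all 4 comparisons (x axis), with 95% confidence intervals, in colour by inhibitor. Filled points have an adjusted p below 0.05, which FUOM reached with all 4 inhibitors and GMDS, SLC35C1 and FUCA2 with none.

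FCSK, the fucokinase, was at 33.5, 35.2 and 33.7 CPM in DMSO. It was at 44.7, 44.3 and 45.9 CPM with Fucotrim I and at 51.1 and 52.6 CPM with Fucotrim II. All 5 Fucotrim libraries were above the DMSO libraries, and the 2 Fucotrim groups did not overlap. The fitted changes were 1.33-fold with Fucotrim I (log2 0.41 ± 0.06 SE, adjusted p = 3.88e-05) and 1.52-fold with Fucotrim II (0.60 ± 0.07, adjusted p = 0.000134). With SGN-2FF FCSK was at 39.8, 38.3 and 35.6 CPM, all above DMSO, and its log2 difference of 0.17 ± 0.06 had an adjusted p of 0.0576. Without SGN-2FF replicate 3, the lowest of these libraries, the difference was 0.20 and the adjusted p 0.0282. With P-SiaFNEtoc it was at 35.1, 35.4 and 37.6 CPM, overlapping DMSO (log2 0.08, 95% interval -0.04 to 0.20).

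FPGT, which joins the fucose phosphate made by FCSK to the nucleotide, was at 13.4, 13.6 and 13.1 CPM in DMSO. It was at 10.9 and 10.2 CPM with Fucotrim II, below all DMSO libraries, a fall of 0.35 ± 0.10 on the log2 scale (edgeR adjusted p = 0.0198). This call was lost without any single DMSO library or without Fucotrim II replicate 2 (adjusted p 0.0515 to 0.0604) and in DESeq2 (0.087). In a fit that leaves out 1 Fucotrim II library, the remaining one is assumed to vary like the libraries it is compared with, which alone give the spread. With Fucotrim I FPGT was at 12.4, 13.2 and 10.3 CPM, with SGN-2FF at 10.1, 13.2 and 12.7 and with P-SiaFNEtoc at 13.6, 12.9 and 12.4, each group overlapping DMSO. Their log2 differences were -0.14, -0.13 and -0.04, and none passed the test. Within a library the ratio of FCSK to FPGT counts does not depend on scaling, and it was 2.50 to 2.58 in DMSO, 3.35 to 4.45 with Fucotrim I and 4.67 to 5.16 with Fucotrim II. It was 2.80 to 3.95 with SGN-2FF and 2.57 to 3.04 with P-SiaFNEtoc, of which only the last overlapped DMSO. These ratios were not tested.

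GMDS, the enzyme at which the Fucotrims are aimed, was at 16.6, 16.7 and 15.4 CPM in DMSO. With Fucotrim I it was at 14.9, 13.4 and 14.8 CPM, below each DMSO library, with a log2 difference of -0.17 (95% interval -0.36 to 0.03, adjusted p = 0.155). With Fucotrim II the 2 libraries stood apart, at 12.7 and 17.3 CPM, on either side of all DMSO libraries (log2 -0.12, interval -0.41 to 0.17). Without replicate 2 the difference was -0.37 and without replicate 1 it was 0.08, so the 2 libraries gave opposite directions. SGN-2FF gave 15.6, 13.9 and 16.6 CPM (log2 -0.07, interval -0.25 to 0.11) and P-SiaFNEtoc 14, 15.2 and 15.3 CPM (-0.13, interval -0.30 to 0.04). The fitted value was below 0 with all 4 inhibitors, and the lower ends of the intervals allow a fall of up to 0.41 on the log2 scale. The count ratio of FCSK to GMDS, a salvage gene over a de novo gene, was 2.02 to 2.19 in DMSO, 3.00 to 3.32 with Fucotrim I and 3.04 to 4.03 with Fucotrim II. It was 2.15 to 2.76 with SGN-2FF and 2.33 to 2.50 with P-SiaFNEtoc.

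GFUS, the other de novo gene (chr8:143612618-143618048, minus strand), had only 3 to 15 counts in each of the 14 libraries, which is 0.202 to 1.14 CPM. It passed the low-count filter only in the P-SiaFNEtoc comparison, and there only through the P-SiaFNEtoc libraries, in which it was at 0.630 to 0.757 CPM against 0.436 to 0.615 in DMSO, so the test of that difference is not read. It lay in a run of 13 neighbouring protein-coding genes, from GSDMD to IQANK1 over 237.4 kb of chromosome 8. Their DMSO means were all under 10 CPM and reached at most 3.31, and their highest value in any library was 10.3 CPM. Among them EEF1D, which encodes a subunit of a translation elongation factor used by dividing cells in general, had 7 to 62 counts per library. Outside the run, ZC3H3 on one side was at a DMSO mean of 25.5 CPM and SCRIB, PUF60 and NRBP2 on the other were at 10.5, 4.06 and 76.3, so low values did not end with the run. Of the 15 protein-coding genes that start within 200 kb of GFUS, 12 (80%) were under 2 CPM in DMSO, against 38.9% of all 19049 protein-coding genes in the tables. A high share was not particular to GFUS, being 100% around FPGT (3 genes), 75% around SLC35C2 (4) and 50% around FUOM (14). Around FCSK, SLC35C1, FUCA1 and FUCA2 it was 0 to 20%, and GMDS had 0 such neighbours. The run was noticed after its values were seen, its cause was not tested, and the GFUS counts are therefore not read here as the level of its transcript.

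**Figure D3:**
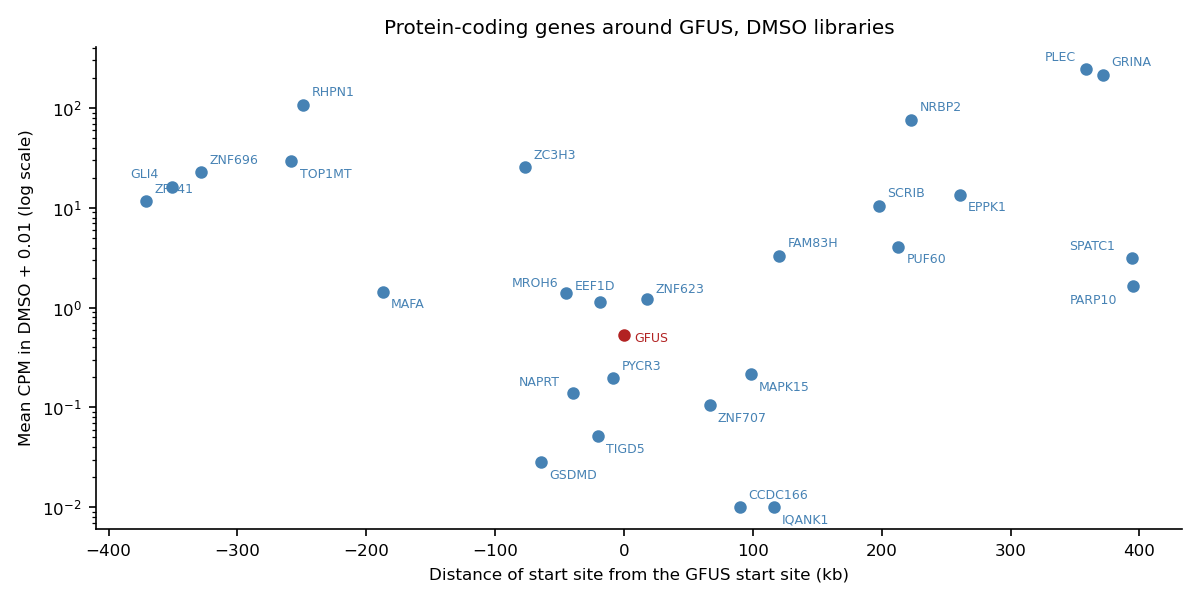
Mean level in the 3 DMSO libraries (y axis, CPM + 0.01, log scale) of the protein-coding genes that start within 400 kb of the GFUS start site (x axis, kb), with GFUS in red. GFUS, at 0.516 CPM, and EEF1D, at 1.12 CPM, lie in a low stretch between ZC3H3 (25.5) and NRBP2 (76.3), with SCRIB (10.5) and PUF60 (4.06) just before the latter.

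SLC35C2, the relative of the Golgi GDP-fucose transporter, was at 71.1, 67.0 and 70.4 CPM in DMSO. With Fucotrim II it was at 91.4 and 97.1 CPM, 1.35-fold higher (log2 0.44 ± 0.07 SE, edgeR adjusted p = 0.000549). With Fucotrim I it was at 76.4, 74.4 and 80.0 CPM, all above DMSO but by a smaller step, 1.12-fold (log2 0.16 ± 0.06, adjusted p = 0.0304). That smaller call was lost when any single DMSO library or Fucotrim I replicate 3 was left out (adjusted p 0.0607 to 0.144), and when no low-count filter was used (0.0629). With SGN-2FF SLC35C2 was at 68.8, 66.9 and 66.4 CPM (log2 -0.03, 95% interval -0.13 to 0.07) and with P-SiaFNEtoc at 64.9, 73.6 and 69.5 CPM (0.00, interval -0.11 to 0.10).

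SLC35C1, the GDP-fucose transporter itself, was at 20.7, 21.4 and 20.2 CPM in DMSO and overlapped DMSO in all 4 treated groups. It was at 21.2, 18 and 22.5 CPM with Fucotrim I and at 20.3 and 25.8 CPM with Fucotrim II. The log2 differences were 0.00 (95% interval -0.19 to 0.18) and 0.15 (-0.09 to 0.39), and with SGN-2FF and P-SiaFNEtoc they were 0.02 (-0.13 to 0.18) and 0.10 (-0.05 to 0.24). The 2 Fucotrim II libraries again stood apart, since without replicate 1 the difference was 0.31 and without replicate 2 it was -0.04. The count ratio of SLC35C2 to SLC35C1 was 3.14 to 3.49 in DMSO, 3.55 to 4.13 with Fucotrim I and 3.76 to 4.49 with Fucotrim II. It was 3.16 to 3.26 with SGN-2FF and 2.96 to 3.46 with P-SiaFNEtoc, within or overlapping the DMSO range.

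FUCA1, the lysosomal fucosidase, was at 25.9, 26.4 and 24.9 CPM in DMSO and at 30.9 and 31.6 CPM with Fucotrim II, 1.21-fold higher (log2 0.27 ± 0.08 SE, edgeR adjusted p = 0.0148). The call was lost without DMSO replicate 1 (0.0603), without DMSO replicate 3 (0.0737) and, narrowly, in DESeq2 (0.0505). With Fucotrim I it was at 29.0, 27.4 and 30.3 CPM, also above every DMSO library, with a log2 difference of 0.18 and an adjusted p of 0.0595. Without Fucotrim I replicate 2 the difference was 0.22 (edgeR adjusted p = 0.0324). SGN-2FF gave 23.9 to 25.3 CPM and P-SiaFNEtoc 23.5 to 27.7 CPM, both overlapping DMSO.

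FUCA2, the secreted fucosidase, had the smallest range between group means of the 8 members with readable counts. It was at 85.3 to 89.8 CPM in DMSO, 84.2 to 85.1 with Fucotrim I, 86.2 to 89.1 with Fucotrim II, 80.1 to 85.9 with SGN-2FF and 85.6 to 91.8 with P-SiaFNEtoc. The log2 differences were -0.05, -0.01, -0.08 and 0.00, with 95% intervals that stayed between -0.18 and 0.13. The count ratio of FUCA1 to FUCA2 was 0.290 to 0.294 in DMSO, 0.322 to 0.360 with Fucotrim I and 0.354 to 0.358 with Fucotrim II. It was 0.279 to 0.316 with SGN-2FF and 0.269 to 0.302 with P-SiaFNEtoc, both overlapping DMSO.

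Of the 8 members other than GFUS, 6 had no overlap with the DMSO libraries with Fucotrim I, 5 with Fucotrim II, 2 with SGN-2FF and 2 with P-SiaFNEtoc. Among all genes tested 52.3%, 67.4%, 36.4% and 33.4% did not overlap, so these counts lay near the background.

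The Fucotrims were also compared with each other. Their doses differ, so compound and dose cannot be told apart. Of the 8 members tested 1 was lower with Fucotrim I and 0 were higher, where 6.04% of 14378 genes were lower and 3.46% higher. At an unadjusted p below 0.05 and in DESeq2 and limma-voom, 0 members were higher likewise. It was SLC35C2, with a log2 difference of -0.29 ± 0.08 SE (Fucotrim I minus Fucotrim II, 95% interval -0.46 to -0.11, edgeR adjusted p = 0.0461). This call was lost when any Fucotrim I library or Fucotrim II replicate 2 was left out (adjusted p 0.109 to 0.192) and in DESeq2 (0.0518). FCSK differed by -0.20 (-0.38 to -0.01, adjusted p = 0.166), and FUOM by 0.07 (-0.17 to 0.30). The libraries did not overlap for 4 of the 8, FCSK, SLC35C2, FUCA1 and FUCA2, where 41.8% of all genes did not.

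Per exon length, FUCA2 was the most and FPGT the least abundant in DMSO of the 8 members with readable counts. Mean levels in DMSO were 31.2 ± 0.892 CPM per kilobase of exon (SD, n = 3) for FUCA2, 13.8 ± 0.26 for FUOM, 12.6 ± 0.38 for FUCA1 and 9.01 ± 0.286 for SLC35C2. They were 5.36 ± 0.151 for SLC35C1, 4.72 ± 0.125 for FCSK, 3.85 ± 0.174 for GMDS and 2.38 ± 0.0442 for FPGT. In the DMSO libraries the ranges of neighbours in this order did not overlap. With Fucotrim I and II, FCSK was above SLC35C1, at 6.22 ± 0.11 (n = 3) and 7.17 ± 0.14 (n = 2) against 5.31 ± 0.60 and 5.96 ± 1.0 CPM per kilobase. The order of the lower genes depends on the length used, since with the longest transcript in place of all exons GMDS (9.31) came above FCSK (7.69) and SLC35C1 (6.05).

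**Figure D4:**
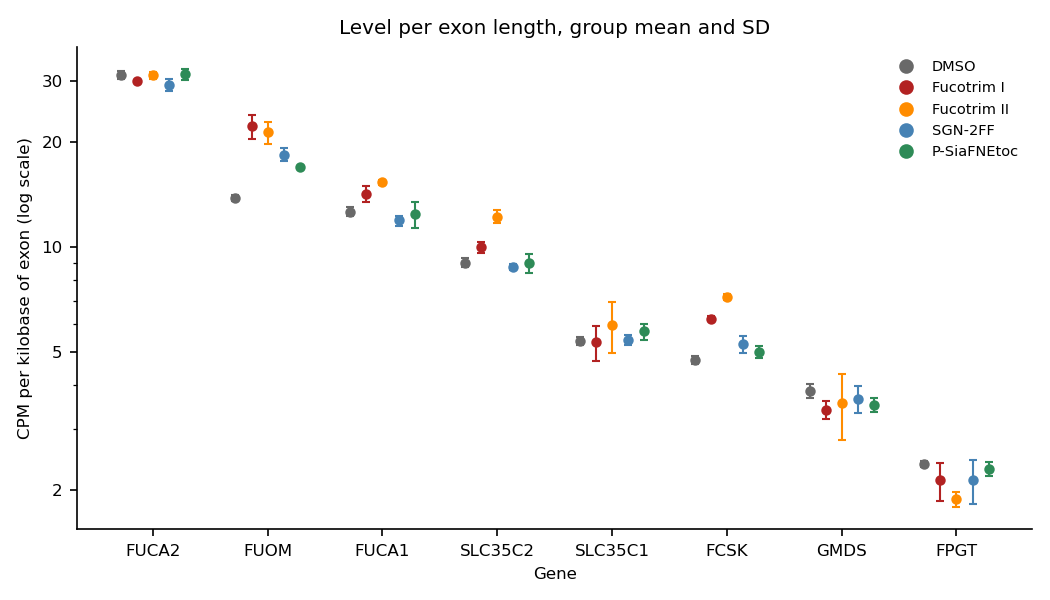
Level in CPM per kilobase of exon (y axis, log scale) of 8 genes, without GFUS (x axis, in the order of the DMSO means), as group means with SD in colour by treatment. FUCA2 is highest at 31.2 in DMSO and FPGT lowest at 2.38.

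Of the 8 members with readable counts, FUOM varied most between groups, with a range of 0.68 between the highest and lowest group mean of log2 CPM. It was followed by FCSK (0.60), SLC35C2 (0.48), FUCA1 (0.35), FPGT (0.34), GMDS (0.18), SLC35C1 (0.16) and FUCA2 (0.10). Among 9788 other genes at 10 CPM or more in DMSO, HOXB13, BCAM, PIEZO1 and SPDEF were among the 5 nearest to FUOM in pattern over the 14 libraries. Likeness was the root mean square difference of log2 CPM after each gene was centred on its own mean, and it was 0.063, 0.068, 0.074 and 0.080 for these 4, where the median over all genes compared was 0.298. BCAM encodes a cell adhesion molecule, PIEZO1 a mechanosensitive channel, and HOXB13 and SPDEF transcription factors of the prostate lineage. HOXB13 went from a mean of 230 CPM in DMSO to 378 with Fucotrim I and 365 with Fucotrim II. It was at 310 with SGN-2FF and 286 with P-SiaFNEtoc. Means with Fucotrim I and with Fucotrim II were 174 and 185 CPM for BCAM and 382 and 425 for SPDEF. PIEZO1 had 304 with both. FUOM did not separate the Fucotrims (log2 difference 0.07, Fucotrim I minus Fucotrim II, interval -0.17 to 0.3). Their order thus does not set HOXB13 apart from the other 3. All 4 genes were chosen for their likeness to FUOM in the same libraries, so a shared order of groups is not independent evidence. Within the family the nearest pair by this measure was SLC35C2 and FUCA1 (0.085), and FPGT and FUOM were the farthest apart (0.376).

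**Figure D5:**
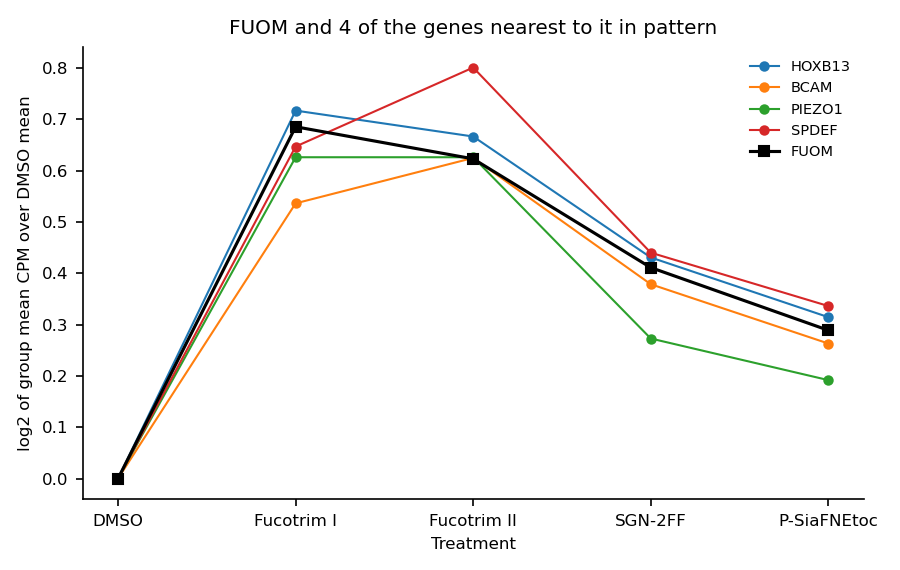
Log2 of the group mean CPM over the DMSO mean (y axis) by treatment (x axis) for FUOM, in black, and 4 of the genes nearest to it in pattern over 14 libraries; lines only join points of 1 gene. HOXB13, at a root mean square difference of 0.063, is the nearest of these 4 to FUOM.

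Genes around the pathway were taken from lists set by function. Over all genes tested, 21.6% were higher and 22.1% lower with Fucotrim I, 25.6% and 25.7% with Fucotrim II, 11.5% and 9.08% with SGN-2FF, and 9.02% and 7.33% with P-SiaFNEtoc. The counts in the lists, which hold 3 to 11 tested genes each, are to be read against these shares and set no list apart from other genes. GDP-mannose, from which the de novo route starts, is supplied by MPI, PMM1, PMM2, GMPPA and GMPPB. With Fucotrim I 1 of these 5 rose and 0 fell, with Fucotrim II 2 rose and 0 fell, with SGN-2FF 0 passed in either direction, and with P-SiaFNEtoc 2 rose and 0 fell. PMM1, a phosphomannomutase, was at 52.6 to 55.9 CPM in DMSO and rose to 67.7 to 72.7 with Fucotrim I (log2 0.38 ± 0.06 SE, edgeR adjusted p = 3.31e-05) and 89.3 to 99.0 with Fucotrim II (0.78 ± 0.07, 3.64e-05). GMPPA, the partner of the GDP-mannose pyrophosphorylase, was the other gene that rose with Fucotrim II (0.77 ± 0.09, adjusted p = 0.000175). With P-SiaFNEtoc the largest rise was that of MPI, the mannose phosphate isomerase (0.19 ± 0.05, adjusted p = 0.0101), while the call of PMM2, another phosphomannomutase, was lost in DESeq2 (0.0639). The list medians were 0.04, 0.10, 0.09 and 0.14 with Fucotrim I, Fucotrim II, SGN-2FF and P-SiaFNEtoc.

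Dolichol-phosphate mannose synthase also draws on GDP-mannose. DPM3, which anchors this enzyme in the membrane, rose with all 4 inhibitors in edgeR, by 0.85 ± 0.09 on the log2 scale with Fucotrim I (edgeR adjusted p = 1.12e-06) and 1.73 ± 0.10 with Fucotrim II (6.02e-06). With SGN-2FF it rose by 0.30 ± 0.07 (0.00421) and with P-SiaFNEtoc by 0.24 ± 0.07 (0.0174), from the same DMSO libraries at 27.0 to 32.6 CPM. The P-SiaFNEtoc call was lost in DESeq2 (adjusted p = 0.0511). DPM2 rose with both Fucotrims, and the catalytic subunit DPM1 fell with Fucotrim II (-0.30 ± 0.09, adjusted p = 0.0155). In all, 2 of the 3 subunits rose and 0 fell with Fucotrim I, 2 rose and 1 fell with Fucotrim II, and 1 rose and 0 fell with SGN-2FF and likewise with P-SiaFNEtoc, with list medians of 0.34, 0.55, 0.10 and 0.14. In edgeR at an unadjusted p below 0.05, 1 subunit was lower with P-SiaFNEtoc, while DESeq2 and limma-voom called 0.

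The 13 fucosyltransferases use the GDP-fucose made by this pathway, and 8 of them passed the low-count filter. With Fucotrim I 1 rose and 2 fell, with Fucotrim II 1 rose and 4 fell, and with SGN-2FF and P-SiaFNEtoc 0 passed in either direction. The largest fall was that of FUT8, which adds core fucose to N-glycans, from 16.6 to 17.2 CPM in DMSO to 12.5 to 14.6 with Fucotrim I (log2 -0.28 ± 0.09, edgeR adjusted p = 0.0219) and 11.7 to 13.2 with Fucotrim II (-0.45 ± 0.10, 0.00513). DESeq2 called 0 of the 2 lower with Fucotrim I (FUT8 adjusted p = 0.0699, POFUT1 0.0515) and 2 of the 4 with Fucotrim II, FUT8 and POFUT1. POFUT2, which adds O-fucose in the endoplasmic reticulum, rose with both (0.22 ± 0.07, 0.014, and 0.49 ± 0.08, 0.000751). At an unadjusted p below 0.05 in edgeR, 1 was higher and 2 were lower with SGN-2FF and 0 were higher and 1 lower with P-SiaFNEtoc, while DESeq2 and limma-voom called 0. The list medians were -0.10, -0.16, -0.07 and -0.04.

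The next list held 12 other transporters of the SLC35A, SLC35B and SLC35D groups, not all of which carry nucleotide sugars. Among the 11 tested, 0 rose and 6 fell with Fucotrim I, and 2 rose and 4 fell with Fucotrim II. With SGN-2FF 0 rose and 2 fell, and with P-SiaFNEtoc 2 rose and 1 fell. The list medians were -0.23, -0.08, -0.05 and -0.06. SLC35D1, a transporter of UDP-sugars in the endoplasmic reticulum, had the largest fall with Fucotrim I (log2 -0.44 ± 0.07, edgeR adjusted p = 8.36e-05), Fucotrim II (-0.67 ± 0.09, 0.000333) and SGN-2FF (-0.22 ± 0.07, 0.0175). In DESeq2, 4 of the 6 lower calls with Fucotrim I and 0 of the 2 with SGN-2FF remained (SLC35D1 adjusted p = 0.0587). With Fucotrim II the largest rise was SLC35D2 (0.52 ± 0.11, adjusted p = 0.00298), and with P-SiaFNEtoc SLC35B2, the transporter of the sulfate donor, rose most (0.19 ± 0.04, 0.00152) and SLC35B4 fell (-0.20 ± 0.06, 0.0231). With P-SiaFNEtoc DESeq2 called SLC35B2 but not SLC35B4 (adjusted p = 0.0647) or SLC35B1 (0.0892).

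Of 12 other genes listed as lysosomal glycan hydrolases 10 were tested, among them CTSA, which is a peptidase and rose with Fucotrim II. With Fucotrim I 3 rose and 0 fell, with Fucotrim II 6 rose and 1 fell, and with SGN-2FF and P-SiaFNEtoc 0 passed in either direction, and the list medians were 0.07, 0.29, 0.03 and 0.04. The alpha-mannosidase MAN2B1 had the largest rise with Fucotrim I (log2 0.43 ± 0.06, edgeR adjusted p = 8.4e-06), and the beta-mannosidase MANBA with Fucotrim II (0.59 ± 0.09, 0.000555). The gene that fell with Fucotrim II was GLA, an alpha-galactosidase (-0.22 ± 0.08, adjusted p = 0.041), which DESeq2 did not call. With P-SiaFNEtoc 1 was higher at an unadjusted p below 0.05 in edgeR. All other counts of 0 in these 5 lists were 0 also at an unadjusted p below 0.05, and all were 0 in DESeq2 and limma-voom. Beside these hydrolases, the log2 differences of FUCA1 were 0.18, which did not pass the test, and 0.27 with Fucotrim I and II.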

How the data were processed

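RNA was extracted from CWR22Rv1 cells and sequenced from stranded mRNA libraries as single reads. Reads were trimmed (Cutadapt) and aligned to hg38 (HISAT2) on the Galaxy platform by the authors, who deposited gene counts from featureCounts in 4 tables, each pairing 1 inhibitor with the same DMSO libraries. Versions of these tools and the annotation are not given in the sources used here. The deposited counts were tested with edgeR 4.0.16 in R 4.3.3 (filterByExpr with a minimum count of 10 and a minimum total of 15, TMM scaling, robust quasi-likelihood test), with each inhibitor fitted with DMSO alone and p-values adjusted by Benjamini-Hochberg over all genes tested. The study's own test, limma-voom (limma 3.58.1), and DESeq2 1.42.0 were alternatives. SE is the log2 fold change over the square root of F. Levels are CPM scaled by TMM over all 14 libraries, so they come from another fit than the fold changes. Per-length levels used the union of annotated exons. Among the SGN-2FF counts, 549 gene identifiers without a symbol (0.0538% of counts) were kept.

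The labels call the repeats biological without saying what was repeated. The p-values therefore set each difference against the variation between these samples only, estimated with the help of all genes tested. No pair of libraries of a group agreed within sampling noise. Chi-square over genes per degree of freedom, larger where libraries agree less, was 24.2 for the 2 Fucotrim II libraries. It was 5.66 to 17.9 within Fucotrim I and 1.59 to 4.37 within the other groups. This value also grows with library totals, which were 18183854 to 19099194 counts with Fucotrim II and 12553094 to 14947100 with Fucotrim I. It therefore does not show that the Fucotrim II libraries differed more than those of Fucotrim I. The main test did not pair libraries by replicate number, and whether these numbers pair the samples was not settled. Counts total 12553094 to 19981453 per library, and members with few counts are the least precise. The scripts were tested on simulated data. Members, gene lists and tests were chosen with earlier results of these data known. Named genes were the 9 members, the largest called rise and fall of each list per inhibitor, and the 5 genes nearest in pattern to the member with the widest range of group means. Genes named in the account of the GFUS region, DPM2, PMM2, POFUT1, SLC35B1, CTSA and the marker genes stand outside the part of this rule that ranks genes. Some genes of these lists are not reported here. Doses and time come from the study's methods.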

Additional observations from a re-analysis of the deposited data

Results flagged for a closer look

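SLC35C2 was the single member called in the direct comparison of the 2 Fucotrims. The log2 difference was -0.29 (Fucotrim I minus Fucotrim II, SE 0.08, edgeR adjusted p = 0.0461), and the levels were 74.4 to 80.0 CPM with Fucotrim I (3 libraries) and 91.4 to 97.1 CPM with Fucotrim II (2 libraries). The call was lost when any 1 of the Fucotrim I libraries (adjusted p 0.124 to 0.192) or Fucotrim II replicate 2 (0.109) was left out. It was lost also in DESeq2 and with the replicate numbers of the titles as a block. Members that were not called were not shown to be equal between the Fucotrims. Groups of 2 or 3 libraries are too small for a test of outlying values within a group.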

How the results depend on the processing

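FUOM kept its call with all 4 inhibitors and FCSK with both Fucotrims under each of the 14 alternatives (other scaling, test, filter, samples or pairing), as did SLC35C2 with Fucotrim II. Of 573 alternative values of the members' log2 fold changes, 526 kept direction and side of the threshold, 21 lost a call, 6 gained one and 20 changed sign. The 526 include the values of GFUS with P-SiaFNEtoc, a difference whose test is not read here, so they say nothing of its stability. No setting moved the median of all genes by over 0.1. Fits with the replicate number as a block rest on a number only (correlations of deviations of same-numbered libraries were 0.0242 to 0.125 for Fucotrim I, and with Fucotrim II -0.146 and -0.192 by title but 0.192 and 0.0472 by library name). With the block by title numbers, FUOM rose by 0.70, 0.64, 0.43 and 0.30 with the 4 inhibitors, FUCA1 was called with Fucotrim I (adjusted p 0.0344), and with Fucotrim II the calls of FUCA1 (0.193) and FPGT (0.138) were lost, so members lower were 0. By library name numbers all 5 Fucotrim II calls were kept. Between the Fucotrims the block by title gave 0 members lower (SLC35C2 adjusted p 0.426) and 358 genes in all, and by library name 2810, against 1366 without it. The number of genes called then also shifted in its split, 36.4% of calls being higher without the block, 26% by title and 44.9% by library name.

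Members lower with Fucotrim II were also 0 in DESeq2 and at adjusted p below 0.01, and 0 to 1 with single libraries left out. Between the Fucotrims they were 0 in DESeq2 and at 0.01, 2 in 1 fit of all 14 libraries (FCSK joined, adjusted p 0.0315), and 0 to 1 with libraries left out. Members higher with SGN-2FF were 1 to 2 with libraries left out. All genes called with SGN-2FF were 2946, but 1942 in DESeq2, 1695 in 1 fit, 1609 at 0.01 and 1642 to 3109 with libraries left out. With P-SiaFNEtoc they were 2331, but 1482, 998, 1171 and 1516 to 2115, and the share of calls that were higher went from 55.2% to 67.3% in 1 fit. Between the Fucotrims they were 3597 in 1 fit, 447 at 0.01 and 336 to 2916 with libraries left out. The cause was not tested.

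The sign changes were all in values that did not pass the test. SLC35C1 with Fucotrim I, at 0.00, was 0.00084 with DESeq2 size factors, 0.003 in DESeq2, 0.00056 without mitochondrially encoded genes, and -0.067 to 0.086 with single libraries left out. FUCA2 with P-SiaFNEtoc was -2.7e-05 with no low-count filter. The other sign changes came with single libraries left out. With Fucotrim II, GMDS ranged from -0.366 to 0.083, SLC35C1 from -0.041 to 0.309 and FUCA2 from -0.043 to 0.009. With SGN-2FF, GMDS ranged from -0.133 to 0.006 and SLC35C1 from -0.003 to 0.041. With P-SiaFNEtoc, SLC35C2 ranged from -0.049 to 0.046, FUCA1 from -0.098 to 0.025 and FUCA2 from -0.025 to 0.021. Between the Fucotrims, GMDS ranged from -0.265 to 0.185, SLC35C1 from -0.327 to 0.024 and FUOM from -0.007 to 0.145. The 4 genes named as near to FUOM were among the nearest 5 also with library totals. At 3 to 15 counts per library no level of GFUS could be read.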
